A study of Saccharomyces cerevisiae with 8 samples.

Results

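The nuclear genes for the respiratory chain and the ATP synthase of budding yeast were followed in newly made RNA of 3 Mediator mutants and their parent strain. The 42 genes were taken by symbol: the alternative NADH dehydrogenases, succinate dehydrogenase, the cytochrome bc1 complex, cytochrome c, cytochrome c oxidase and the ATP synthase with its inhibitor. Of these, 41 were found among the 6030 annotated transcripts, 4928 of them coding, and ATP14 was not analysed here. The list names genes by function and sets no threshold on a measured value, though it was drawn up with earlier results of these data known. All 41 genes passed the filter on low counts. The tested strains carried med7-1002, med21-1002 or med10-1002, alleles of genes for subunits of the Mediator middle module, and the fourth strain was the parent without such an allele. The labels give every strain, parent included, as MATa with ade-, can1-100, cyh2r, the his3-11,15 and leu2-3,112 alleles, trp1-1, ura3 and hsp82- DHSE-lacZ. Each group is 1 strain with n = 2 libraries (J121 for med7-1002, J20 for med21-1002, J84 for med10-1002 and HS1004 for the parent). Cells were diluted to an OD600 of 0.1, grown at 30 °C in YPD, a rich glucose medium, and at an OD600 of 0.8 given 5 mM 4-thiouracil for 6 min, which marks RNA made during the pulse. Labelled RNA was then purified and 100 ng entered each library.

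The respiratory chain of the mitochondrial inner membrane passes electrons from NADH and succinate through ubiquinone, the bc1 complex and cytochrome c to cytochrome c oxidase, and the proton gradient this builds drives the ATP synthase. Budding yeast has no proton-pumping complex I and takes in electrons through rotenone-insensitive NADH dehydrogenases instead. Most of these genes are repressed in glucose and are activated by the Hap2/3/4/5 complex, which binds CCAAT boxes and whose activating subunit is Hap4. Hap1, a factor that responds to heme, acts at some of them, and Rox1 represses hypoxic genes when oxygen is present. Mediator links such activators to RNA polymerase II.

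The stretch of 300 nt before the annotated transcript start was searched on both strands in the R64 genome for letters that these factors are known to bind. CCAAT occurred before 38 of the 41 genes (92.7%) and before 42.6% of all 4928 coding transcripts. The longer ACCAATNA, which contains CCAAT and is counted within it, occurred before 19 genes (46.3%) and before 5.07% of coding transcripts. CGGNNNTANCGG, a Hap1 pattern, occurred before CYT1 and QCR6, which are 2 of only 7 coding transcripts that have it. ATTGTT, the core bound by Rox1, occurred before 14 genes (34.1%) and before 32.7% of coding transcripts. CYC1, CYT1 and NDE2 had no CCAAT in this window. These matches describe the sequence and are not shown to be bound. Windows around matches are printed 5′ to 3′ on the strand of the gene, with the match in capitals. The first 5 hold ACCAATNA and belong to genes with unlike responses: COX12 was called in all 3 mutants, RIP1 was called in med21-1002 under every alternative tried, ATP17 had the third largest rise in med7-1002, SDH1 the smallest called one, and NDI1 had none.
COX12, chrXII:225355-225394, minus strand: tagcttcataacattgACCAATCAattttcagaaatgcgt
RIP1, chrV:106996-107035, plus strand: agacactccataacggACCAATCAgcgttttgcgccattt
ATP17, chrIV:1228365-1228404, plus strand: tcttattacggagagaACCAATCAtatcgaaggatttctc
SDH1, chrXI:171424-171463, minus strand: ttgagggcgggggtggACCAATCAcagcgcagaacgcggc
NDI1, chrXIII:30012-30051, minus strand: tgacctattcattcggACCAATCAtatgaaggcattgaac
The next 3 belong to genes with large or shared rises that hold CCAAT without the longer match, COX7 and NDE1 with its reverse complement ATTGG.
INH1, chrIV:134931-134967, plus strand: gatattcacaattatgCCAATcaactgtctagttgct
COX7, chrXIII:779269-779305, minus strand: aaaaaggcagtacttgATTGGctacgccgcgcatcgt
NDE1, chrXIII:556716-556752, minus strand: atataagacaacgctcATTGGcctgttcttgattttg
The last 3 hold the Hap1 pattern, the first of each gene as its reverse complement.
CYT1, chrXV:446922-446961, plus strand: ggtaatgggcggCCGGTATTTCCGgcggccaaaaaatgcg
QCR6 farther match, chrVI:225032-225075, minus strand: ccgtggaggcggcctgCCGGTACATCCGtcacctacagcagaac
QCR6 nearer match, chrVI:224967-225010, minus strand: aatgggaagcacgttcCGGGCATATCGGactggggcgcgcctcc

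Counts assigned to transcripts ran from 10962170 to 23629303 per library, and 5746 transcripts were tested. Replicates agreed least in med7-1002, where the SD of their log2 difference over all transcripts was 0.92, against 0.37 in med21-1002, 0.23 in med10-1002 and 0.27 in parent. The share of reads outside annotated transcripts was 49.5% and 37.7% in med7-1002 and 32.7% to 36.3% in the other libraries. Against the MATa label, parent, med21-1002 and med10-1002 libraries expressed genes of alpha cells: STE3, the a-factor receptor, stood at 287 to 390 CPM there and at 2.11 and 0 CPM in med7-1002. STE2, the alpha-factor receptor of a cells, stood at 288 and 413 CPM in med7-1002, at 12.2 to 58.3 CPM in the other mutant libraries and at 20.2 and 19.7 CPM in parent. All 5 markers of a cells were higher and the 4 measured markers of alpha cells lower in med7-1002 than in parent, so every comparison of med7-1002 with another group spans 2 mating types, and its part in the results was not tested. HSP82, the gene behind the label hsp82-, had 3302 and 4369 CPM in med7-1002, 5084 to 5531 CPM in the other mutant libraries, and 5906 and 5873 CPM in parent, although it may share reads with its close copy HSC82. MED7 and SRB7, the gene of Med21, were not called in any mutant against parent (edgeR adjusted p from 0.0852 to 0.886), which checks nothing because the alleles are not described as deletions.

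In med7-1002 nearly all of the respiratory genes rose, in med21-1002 about 1 in every 2 did, by less, and in med10-1002 few did. Of the 41 genes, 39 rose and 0 fell in med7-1002, 20 rose and 0 fell in med21-1002, and 2 rose and 0 fell in med10-1002, each against parent (edgeR quasi-likelihood test, adjusted p under 0.05 over all transcripts, called here). Over all transcripts 25.9% were called higher and 22.6% lower in med7-1002. The same shares were 3.88% and 3.92% for med21-1002, and for med10-1002 4.93% and 2.63%. The share of 2 genes in 41 in med10-1002 is therefore the background share. The median log2 fold change of the 41 genes was 1.83 in med7-1002 (3.55-fold), 0.75 in med21-1002 (1.69-fold) and 0.07 in med10-1002 (1.05-fold), against 0.02, 0.00 and −0.01 for all transcripts. Together the genes took up 1.31% and 1.26% of assigned counts in med7-1002, 0.819% and 0.888% in med21-1002, 0.612% and 0.632% in med10-1002, and 0.512% and 0.522% in parent. Fewer cells that express a gene and less of its RNA per cell cannot be told apart in such bulk samples, and each value stands relative to the rest of the RNA in its library, since spike-ins were not analysed here. The 2 libraries lay above both parent libraries for 39 genes in med7-1002 and for 37 in med21-1002, and for 17 in med10-1002, where 11 genes lay below. Over all transcripts the libraries lay above in 35.7%, 31.0% and 37.6%, and below in 35.9%, 31.9% and 39.0%. The 11 genes below in med10-1002 are 26.8% of the 41, under that last share.

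**Figure D1:**
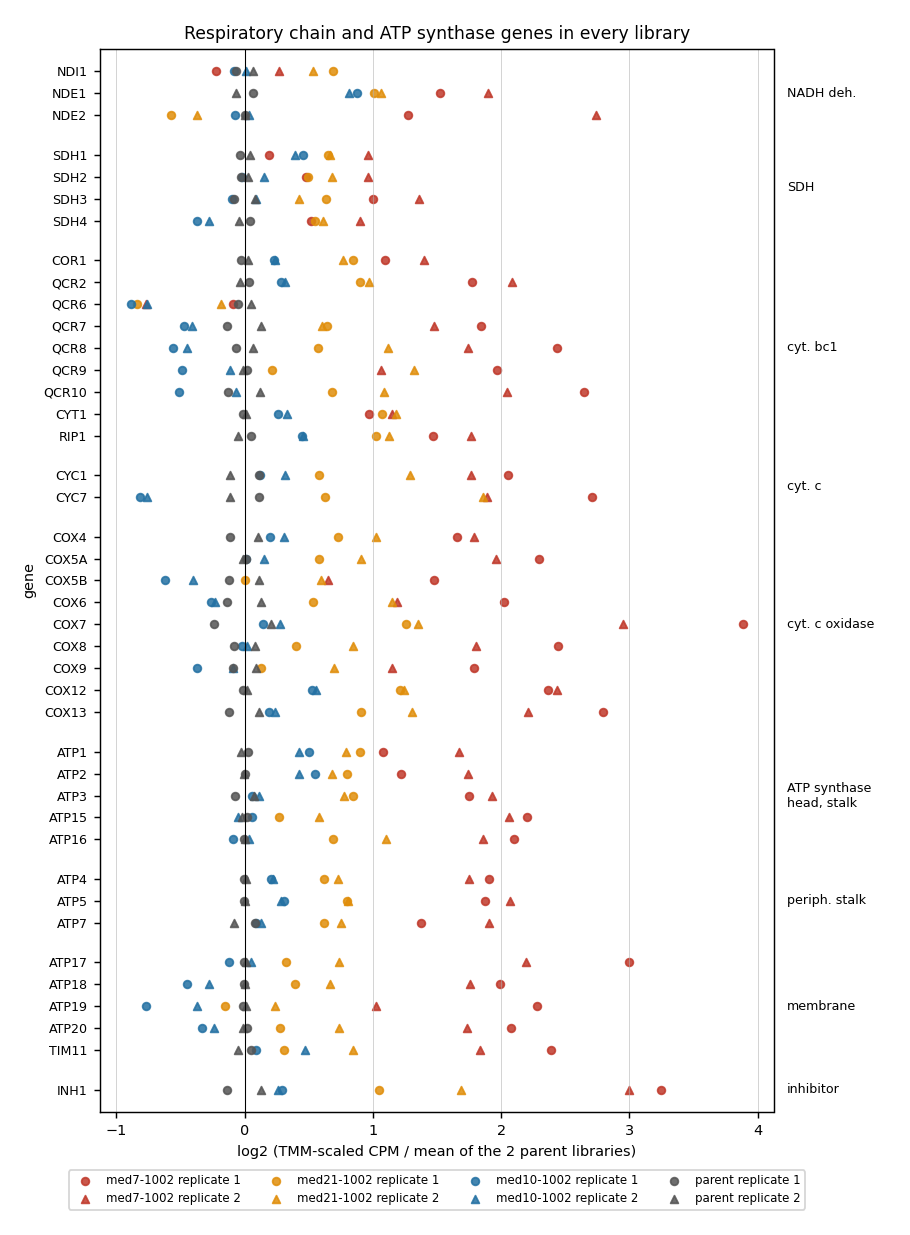
Log2 ratio of each library's TMM-scaled CPM to the mean of the parent libraries (x axis) for the 41 genes, grouped by complex (y axis); circles are replicate 1 and triangles replicate 2. Med7-1002 points lie to the right for all genes but NDI1 and QCR6, med21-1002 points lie between med7-1002 and parent for most, and med10-1002 points lie on either side of parent.

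How firmly each count stands differed, and the losses named gene by gene further on do not list every setting. In med7-1002, 32 of the 39 calls were made under all 17 alternatives of scaling, filter, test, length correction and left-out library. In med21-1002 only COX12, CYT1 and RIP1 were called under all 18. The med21-1002 count was 3 without parent replicate 1, 8 without parent replicate 2 (the 3 genes with ATP3, ATP5, COX4, NDE1 and QCR2), 12 without med21-1002 replicate 1, 4 without med21-1002 replicate 2 (the 3 genes with INH1), 14 and 12 without med10-1002 replicate 1 or 2, and 36 without either or both med7-1002 libraries, which share their spread with all groups in the fit. The highest adjusted p of the other 17 calls over the alternatives ran from 0.0739 for NDE1 to 0.359 for QCR7. The median moved between 0.63 and 0.79 when a library was left out, so the size of the med21-1002 difference changed less than its calls. Calls over all transcripts in med21-1002 and in med10-1002 also fell without any one library outside med7-1002. In med10-1002 the count was 0 without either parent or either med10-1002 library or without med21-1002 replicate 2, and 1 without med21-1002 replicate 1. Without the med7-1002 libraries it was 11 higher and 4 lower. Higher were ATP1, ATP2, ATP4, ATP5, COR1, COX12, CYT1, NDE1, QCR2, RIP1 and SDH1, and lower were QCR6, QCR7, QCR8 and SDH4. Of all 5701 transcripts tested in that setting, 1188 were higher and 914 lower in med10-1002, and 844 and 850 in med21-1002.

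Electrons from NADH enter through Ndi1, which faces the matrix, and through Nde1 and Nde2, which face the intermembrane space. NDE1, the main outer enzyme, rose in all 3 mutants, whereas NDI1 did not pass the threshold in any. NDE1 had 933 and 1207 CPM in med7-1002, 653 and 679 CPM in med21-1002, 595 and 569 CPM in med10-1002, and 340 and 309 CPM in parent (replicates 1 and 2). Every mutant library lay above both parent libraries, and the med7-1002 libraries above all others. The log2 fold changes were 1.72 (SE 0.16) in med7-1002, 1.04 (SE 0.16) in med21-1002 and 0.84 (SE 0.16) in med10-1002, with edgeR adjusted p of 5.16e-05, 0.00524 and 0.0174. The med10-1002 call was lost without either parent library, either med10-1002 library or med21-1002 replicate 2 (adjusted p up to 0.149), and the med21-1002 call without parent replicate 1 or med21-1002 replicate 2 (up to 0.0739).

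NDI1 had 323 and 453 CPM in med7-1002, 608 and 545 CPM in med21-1002, 356 and 381 CPM in med10-1002, and 361 and 394 CPM in parent. The med21-1002 libraries were the highest, and the med7-1002 libraries lay on either side of parent. The med21-1002 log2 fold change of 0.61 (SE 0.17) missed the threshold with an edgeR adjusted p of 0.0712, and passed without the med7-1002 libraries (0.000396). NDI1 differed directly between these mutants, lower in med7-1002 than in med21-1002 by a log2 fold change of −0.57 (edgeR adjusted p = 0.0277). That call was lost without parent replicate 1, either med21-1002 library or med10-1002 replicate 2. NDE2, the minor outer enzyme, was close to the floor of these libraries, with 3.60 and 9.93 CPM in med7-1002, 1.00 and 1.15 CPM in med21-1002, 1.41 and 1.52 CPM in med10-1002, and 1.49 and 1.49 CPM in parent. Its rise in med7-1002 (log2 fold change 2.19, SE 0.56, edgeR adjusted p = 0.0108) rested on 41 and 202 counts, against 28 and 27 in parent. The call was lost without either parent library and with only the 2 groups compared.

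Succinate dehydrogenase, which feeds electrons from the tricarboxylic acid cycle into ubiquinone, moved least of the complexes in med7-1002. Its 4 genes all rose there, with a median log2 fold change of 0.73, and 1 rose in med21-1002 (median 0.59) and 0 in med10-1002 (median 0.03). SDH1, the flavoprotein subunit, had 303 and 518 CPM in med7-1002, 418 and 423 CPM in med21-1002, 365 and 349 CPM in med10-1002, and 259 and 273 CPM in parent. All 6 mutant libraries lay above parent, but the med7-1002 libraries stood far apart from each other. SDH1 rose in med7-1002 with a log2 fold change of 0.63 (SE 0.22, edgeR adjusted p = 0.0405). This call was lost without any one library other than med7-1002 replicate 1. A term for replicate number and a fit of only the 2 groups compared also lost it. The corresponding values were 0.66 in med21-1002 (adjusted p = 0.114) and 0.42 in med10-1002 (0.261).

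SDH2, the iron-sulfur subunit, had 196 and 274 CPM in med7-1002, 199 and 225 CPM in med21-1002, 138 and 156 CPM in med10-1002, and 138 and 143 CPM in parent. The med7-1002 and med21-1002 libraries overlapped each other and lay above parent. SDH2 rose in med7-1002 (log2 fold change 0.74, SE 0.17, edgeR adjusted p = 0.00631), a call lost without parent replicate 1 (0.0545), and stood at 0.59 in med21-1002 (adjusted p = 0.0740). The membrane anchors differed more between med10-1002 and the other mutants. SDH3 rose in med7-1002 (1.19), and SDH4 rose in med7-1002 (0.72) and in med21-1002 (0.58), the med21-1002 call being lost without any one library outside med7-1002 (adjusted p up to 0.247). SDH4 stood at 48.8 and 51.8 CPM in med10-1002, below the 64.7 and 61.2 CPM of parent, without passing the test (log2 fold change −0.32, edgeR adjusted p = 0.205).

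The bc1 complex takes electrons from ubiquinol to cytochrome c. In med7-1002, 8 of its 9 genes rose (median log2 fold change 1.62), in med21-1002 5 rose (0.87), and in med10-1002 0 were called (−0.27). The core proteins COR1 and QCR2, cytochrome c1 (CYT1) and the Rieske iron-sulfur protein (RIP1) rose in both med7-1002 and med21-1002. RIP1 had 279 and 343 CPM in med7-1002, 205 and 219 CPM in med21-1002, 137 and 139 CPM in med10-1002, and 104 and 97.4 CPM in parent. The 4 groups did not overlap and kept that order. Its log2 fold changes were 1.62 (SE 0.13), 1.07 (SE 0.13) and 0.45 (SE 0.13), with edgeR adjusted p of 2.88e-05, 0.00180 and 0.0734.

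CYT1 rose about as far in both of these mutants. It had 280 and 316 CPM in med7-1002, 301 and 324 CPM in med21-1002, 171 and 180 CPM in med10-1002, and 142 and 144 CPM in parent. The med7-1002 and med21-1002 libraries overlapped, and all mutant libraries lay above parent. The log2 fold changes against parent were 1.06 (SE 0.12) in med7-1002 and 1.13 (SE 0.12) in med21-1002, and the direct difference between the mutants was −0.07 (edgeR adjusted p = 0.672). In med10-1002 CYT1 stood at 0.30 (adjusted p = 0.160). The small subunits behaved otherwise. QCR7, QCR8, QCR9 and QCR10 had log2 fold changes of 1.58 to 2.37 in med7-1002, all called (QCR9 not without parent replicate 2, edgeR adjusted p = 0.0746), 0.62 to 0.89 in med21-1002, of which QCR7 was called (lost without any one library outside med7-1002, adjusted p up to 0.359), and −0.27 to −0.51 in med10-1002, none called.

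QCR6, the acidic hinge protein of the complex, was the exception among all 41 genes. It had 293 and 184 CPM in med7-1002, 175 and 275 CPM in med21-1002, 169 and 185 CPM in med10-1002, and 302 and 323 CPM in parent. Every mutant library lay below both parent libraries. The log2 fold changes were −0.39 (SE 0.25), −0.48 (SE 0.25) and −0.82 (SE 0.25), and none was called (edgeR adjusted p = 0.227, 0.325 and 0.0840). Without the med7-1002 libraries QCR6 was called lower in med21-1002 (0.0379) and in med10-1002 (0.00217). In parent it had the second highest level per length of all 41 genes, 452 CPM per kb. QCR6 shares 71 nt on its own strand with PHO4, a regulator of phosphate genes, which fell in all 3 mutants (log2 fold change −2.0, −1.54 and −0.62, edgeR adjusted p = 1.28e-05, 0.000374 and 0.0207). How the counting split reads in these shared bases is not given in the sources used here.

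Cytochrome c has an aerobic isoform, CYC1, and a second isoform, CYC7, that is favoured when oxygen is low. CYC1 had 159 and 130 CPM in med7-1002, 57.3 and 93.4 CPM in med21-1002, 41.6 and 47.6 CPM in med10-1002, and 41.3 and 35.3 CPM in parent. The med7-1002 libraries were highest and the med21-1002 libraries next, each apart from parent. CYC1 rose in med7-1002 (log2 fold change 1.91, SE 0.23, edgeR adjusted p = 0.000201) and in med21-1002 (0.97, SE 0.23, adjusted p = 0.0351), and stood at 0.22 in med10-1002 (adjusted p = 0.594). The med21-1002 call was lost without either parent library, either med10-1002 library or med21-1002 replicate 2 (adjusted p up to 0.285).

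CYC7 had 30.9 and 17.6 CPM in med7-1002, 7.32 and 17.1 CPM in med21-1002, 2.69 and 2.79 CPM in med10-1002, and 5.10 and 4.36 CPM in parent. It was the only one of the pair to stand below parent in a mutant, in both med10-1002 libraries. It rose in med7-1002 (log2 fold change 2.35, SE 0.44, edgeR adjusted p = 0.00222), and the values in med21-1002 (1.36, adjusted p = 0.103) and med10-1002 (−0.79, adjusted p = 0.309) were not called. Directly, CYC7 was higher in med21-1002 than in med10-1002 by 2.15 on the log2 scale (edgeR adjusted p = 0.0124), a call lost without med21-1002 replicate 2 or either med10-1002 library. Per kb of transcript span, CYC7 made up 14.5% and 10.5% of the summed CYC1 and CYC7 level in med7-1002, 9.98% and 13.7% in med21-1002, 5.30% and 4.84% in med10-1002, and 9.68% and 9.67% in parent. The med10-1002 share was the lowest in both libraries, and the med7-1002 and med21-1002 shares lay above parent in each library.

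Cytochrome c oxidase, which reduces oxygen, had the largest median rise of the complexes with more than 2 genes in med7-1002. All 9 nuclear genes rose there (median log2 fold change 2.14), 5 rose in med21-1002 (0.87), and 1, COX12, rose in med10-1002 (0.08). COX12 encodes a subunit on the intermembrane space side. It had 106 and 111 CPM in med7-1002, 47.7 and 48.7 CPM in med21-1002, 29.7 and 30.3 CPM in med10-1002, and 20.4 and 20.8 CPM in parent. The 4 groups did not overlap, and the replicates of each were close. COX12 rose by log2 fold changes of 2.40 (SE 0.12), 1.23 (SE 0.12) and 0.54 (SE 0.12), with edgeR adjusted p of 1.19e-05, 0.000584 and 0.0303. The med10-1002 call was lost without any one library outside med7-1002, with a term for replicate number, and with the length correction (edgeR adjusted p = 0.0611). Its log2 fold changes stayed between 0.53 and 0.67 over all alternatives.

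COX7, a small membrane subunit, had the largest rise of all 41 genes in med7-1002. It had 80.6 and 42.2 CPM in med7-1002, 13.0 and 14.0 CPM in med21-1002, 6.04 and 6.62 CPM in med10-1002, and 4.62 and 6.29 CPM in parent. The med7-1002 libraries lay far above the others, though apart from each other. COX7 rose in med7-1002 (log2 fold change 3.49, SE 0.33, edgeR adjusted p = 5.25e-05) and in med21-1002 (1.31, SE 0.31, adjusted p = 0.0398), where both libraries also lay above parent. The med21-1002 call was lost without any one library outside med7-1002 (adjusted p up to 0.291). COX4, COX13 and COX5A were also called in both mutants, and COX6, COX8, COX9 and COX5B in med7-1002. COX9 had 145 and 93 CPM in med7-1002, 45.9 and 67.8 CPM in med21-1002, 32.4 and 39.4 CPM in med10-1002, and 39.3 and 44.6 CPM in parent, and was the oxidase gene with the highest level per length in parent (89.8 CPM per kb).

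Subunit 5 comes in an aerobic form, COX5A, and a hypoxic form, COX5B, which is repressed by Rox1. COX5A had 299 and 237 CPM in med7-1002, 91.0 and 114 CPM in med21-1002, 61.2 and 67.4 CPM in med10-1002, and 61.3 and 60.3 CPM in parent. It rose in med7-1002 (log2 fold change 2.14, SE 0.16, edgeR adjusted p = 2.15e-05) and in med21-1002 (0.75, SE 0.16, adjusted p = 0.0242), a med21-1002 call lost without either parent library, either med10-1002 library or med21-1002 replicate 2 (adjusted p up to 0.221). COX5B had 32.3 and 18.2 CPM in med7-1002, 11.6 and 17.5 CPM in med21-1002, 7.55 and 8.77 CPM in med10-1002, and 10.7 and 12.6 CPM in parent. The med7-1002 libraries were above parent, the med21-1002 libraries overlapped parent and the med10-1002 libraries were below it. COX5B rose in med7-1002 (1.11, SE 0.32, adjusted p = 0.0183). It lost that call without either parent library, with library size alone and with only the 2 groups compared. Its share of the summed COX5A and COX5B level per kb was 11.9% and 8.75% in med7-1002, 13.7% and 16.1% in med21-1002, 13.3% and 14.0% in med10-1002, and 17.9% and 20.7% in parent. The share was lower than in parent in all 6 mutant libraries.

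**Figure D2:**
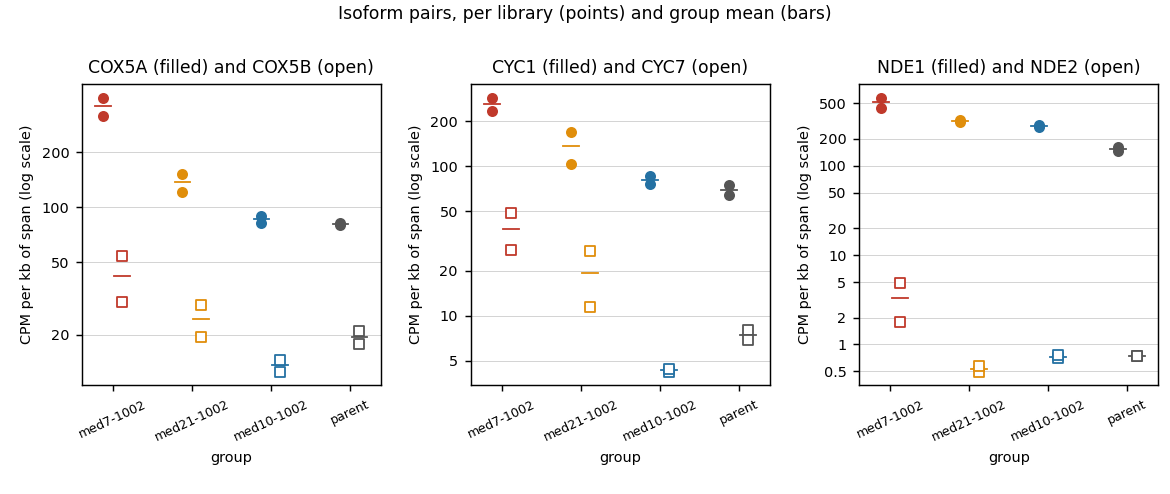
CPM per kb of annotated span (y axis, log scale) of 3 isoform pairs in each group (x axis), with 1 point per library and the group mean as a bar. COX5A, CYC1 and NDE1 (filled) lie above their partners (open) in every library, and CYC7 and COX5B are lowest in med10-1002.

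The ATP synthase turns the proton gradient into ATP. All 14 of its genes measured here rose in med7-1002 (median log2 fold change 1.90), 7 rose in med21-1002 (0.68) and 0 in med10-1002 (0.10). In the catalytic head and central stalk, ATP1 and ATP2 encode the alpha and beta subunits and ATP3 the gamma subunit. ATP2 had the highest level per length of all 41 genes in parent (487 CPM per kb). It had 2098 and 3017 CPM in med7-1002, 1568 and 1449 CPM in med21-1002, 1318 and 1209 CPM in med10-1002, and 905 and 899.7 CPM in parent. All mutant libraries lay above parent and the groups did not overlap. ATP2 rose in med7-1002 (log2 fold change 1.50, SE 0.19, edgeR adjusted p = 0.000304), just missed the threshold in med21-1002 (0.74, SE 0.19, adjusted p = 0.0502) and stood at 0.49 in med10-1002 (adjusted p = 0.154). ATP1 had 1624 and 2450 CPM in med7-1002, 1441 and 1334 CPM in med21-1002, 1091 and 1036 CPM in med10-1002, and 784 and 757 CPM in parent, in the same order. ATP3 had log2 fold changes of 1.84 in med7-1002 and 0.81 in med21-1002, and ATP16, the delta subunit, of 1.98 and 0.91, all called. ATP15, the epsilon subunit, rose in med7-1002 (2.13) and stood at 0.43 in med21-1002.

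The peripheral stalk holds the head still against the turning rotor. Its 3 genes rose in both med7-1002 and med21-1002, with log2 fold changes of 1.66 to 1.97 and 0.68 to 0.80, and stood at 0.11 to 0.29 in med10-1002. ATP4, subunit b, had 619 and 555 CPM in med7-1002, 254 and 274 CPM in med21-1002, 191 and 193 CPM in med10-1002, and 164 and 166 CPM in parent. The 4 groups did not overlap. The med7-1002 and med21-1002 log2 fold changes of ATP4 were 1.83 (SE 0.12, edgeR adjusted p = 1.42e-05) and 0.68 (SE 0.12, adjusted p = 0.0108). The med21-1002 call was lost without any one library outside med7-1002 other than med10-1002 replicate 1 (adjusted p up to 0.162).

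Of the 5 small membrane subunits, all were called higher in med7-1002 (median log2 fold change 1.91), and 0 were called in med21-1002 (0.54) or in med10-1002 (−0.29). The med21-1002 count depended on the setting: ATP17, ATP18, ATP20 and TIM11 were called there with the length correction and without either or both med7-1002 libraries, and ATP17 and TIM11 with only the 2 groups compared. All 5 were also higher in med7-1002 than in med21-1002 in the direct test. ATP17, subunit f, had 374 and 214 CPM in med7-1002, 58.4 and 77.8 CPM in med21-1002, 43.0 and 48.3 CPM in med10-1002, and 46.4 and 47.0 CPM in parent. The med7-1002 libraries were well above the rest, and med10-1002 lay around parent. ATP17 rose in med7-1002 with a log2 fold change of 2.65 (SE 0.26, edgeR adjusted p = 6.58e-05) and stood at 0.54 in med21-1002 (adjusted p = 0.252). ATP19, subunit k, had 55.5 and 23.2 CPM in med7-1002, 10.3 and 13.5 CPM in med21-1002, 6.70 and 8.82 CPM in med10-1002, and 11.3 and 11.5 CPM in parent. It had the widest gap between med7-1002 replicates in that direction of the 41 genes, 1.26 on the log2 scale, and its call there (log2 fold change 1.78, SE 0.38, edgeR adjusted p = 0.00463) was lost without parent replicate 2 (0.0523). Both med10-1002 libraries lay below parent (−0.56, adjusted p = 0.405).

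INH1, the protein that blocks ATP hydrolysis by the enzyme when the gradient collapses, had the second largest rise in med7-1002. It had 132 and 111 CPM in med7-1002, 28.7 and 44.6 CPM in med21-1002, 16.9 and 16.6 CPM in med10-1002, and 12.6 and 15.1 CPM in parent. Every mutant library lay above both parent libraries. INH1 rose by a log2 fold change of 3.13 (SE 0.23, edgeR adjusted p = 1.8e-05) in med7-1002 and 1.40 (SE 0.22, adjusted p = 0.00567) in med21-1002, and stood at 0.28 in med10-1002 (adjusted p = 0.476). Without either parent library the med21-1002 call was lost (adjusted p up to 0.0808). Its relative STF1, a factor that stabilises the bound inhibitor, rose in med7-1002 (1.34, adjusted p = 0.000650), stood at −0.07 in med21-1002 and fell in med10-1002 by 0.84 on the log2 scale (adjusted p = 0.0413).

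**Figure D3:**
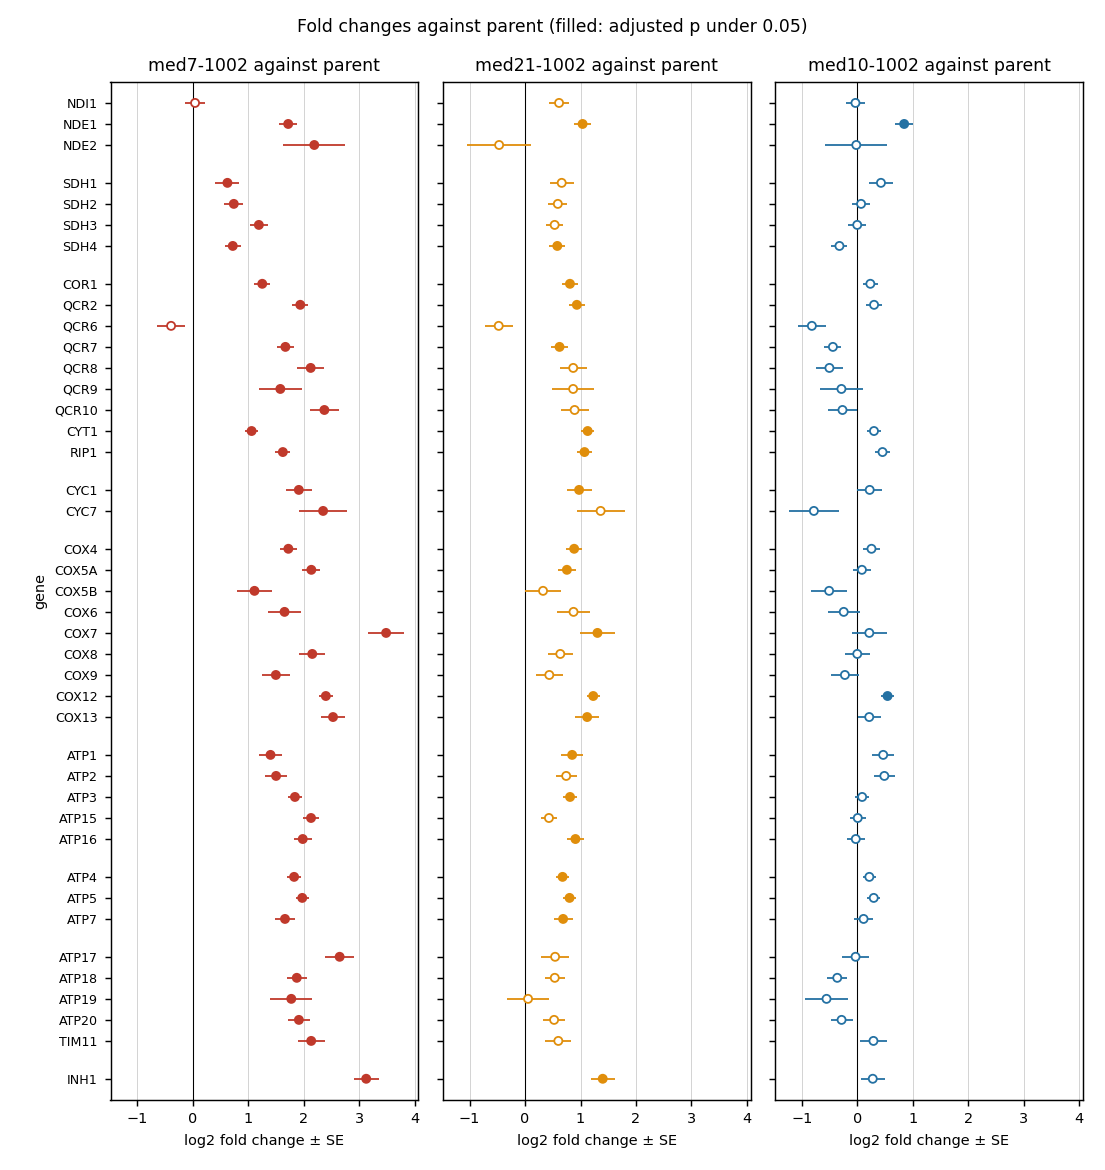
Log2 fold change against parent with its standard error (x axis) for the 41 genes by complex (y axis), 1 panel per mutant; filled points have an edgeR adjusted p under 0.05. The med7-1002 panel has 39 filled points, the med21-1002 panel 20 and the med10-1002 panel 2 (NDE1 and COX12), and QCR6 lies left of 0 in each.

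The mutants were also tested against each other. In med7-1002, 30 genes were higher and 1 (NDI1) lower than in med21-1002, with a median log2 fold change of 1.03, against 22.1% and 18.6% of all transcripts. Against med10-1002, 38 were higher and 0 lower in med7-1002 (median 1.76), against 29.9% and 25% of all transcripts. In med21-1002, 26 were higher and 0 lower than in med10-1002 (median 0.65), against 9.38% and 10.6% of all transcripts. The last count was 14 and 18 without parent replicate 1 or 2, 19 and 6 without med21-1002 replicate 1 or 2, 4 and 6 without med10-1002 replicate 1 or 2, and 37 without either med7-1002 library. CYT1, QCR7 and SDH4 were called in that comparison under all 18 alternatives. Calls over all transcripts between med21-1002 and med10-1002 also fell without any one library outside med7-1002. The difference between med7-1002 and med21-1002 was, among groups of more than 2 genes, greatest for the ATP synthase membrane subunits (median 1.54, 5 of 5 called) and least for succinate dehydrogenase (median 0.15, 1 of 4 called, SDH3). The membrane subunit transcripts spanned 347 to 662 nt and those of succinate dehydrogenase 752 to 2333 nt. Over the 41 genes, this difference had a Spearman's correlation of −0.62 with annotated span. In med21-1002 against med10-1002 the bc1 complex had 7 of 9 genes called (median 0.83), led by QCR8 (1.37), and the oxidase 6 of 9 (0.69), led by COX6 (1.12).

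Sorted by calls against parent, COX12 and NDE1 rose in all 3 mutants, 18 genes in med7-1002 and med21-1002, and 19 in med7-1002 alone, and NDI1 and QCR6 were called in none. The share of all transcripts with each of these patterns was not counted, so no background stands beside them. Of the 19, 13 were higher in med7-1002 than in med21-1002 in the direct test, and COX5B, COX6, CYC7, QCR9, SDH1 and SDH2 were not called in it. Genes with ACCAATNA before their start had a median log2 fold change of 1.72 in med7-1002, 0.68 in med21-1002 and 0.11 in med10-1002, and the 22 genes without it had 1.91, 0.83 and −0.01.

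Transcript length moved with the fold changes of med7-1002 and med10-1002, in opposite directions. Over the 41 genes, Spearman's correlation of log2 fold change with annotated span was −0.46 in med7-1002, 0.13 in med21-1002 and 0.49 in med10-1002, and over 4907 coding transcripts it was −0.43, −0.03 and 0.19. Between mutants, the 41 genes had −0.62 for med7-1002 against med21-1002, −0.70 for med7-1002 against med10-1002 and −0.47 for med21-1002 against med10-1002. These are descriptions across genes, which share libraries. The part of length in the differences between complexes was not tested. Among transcripts up to 500 nt, the 6 respiratory genes had a median of 2.0 in med7-1002 and the 148 other coding transcripts 1.17. Over 500 and up to 1000 nt the medians were 1.97 for 21 respiratory genes and 0.64 for 1178 others, and above 1000 nt they were 1.56 for 14 respiratory genes and −0.08 for 3540 others. In med21-1002 the medians of the same classes were 0.49, 0.75 and 0.81 for respiratory genes and 0.08, 0.04 and 0.03 for the others. In med10-1002 they were −0.11, −0.03 and 0.28, and −0.35, −0.14 and 0.01. With span corrected, 38 genes were higher and 1, QCR6, lower in med7-1002 (median 1.64), 32 were higher in med21-1002 (0.83), and 1 was higher and 1 lower in med10-1002 (0.11). Of all 5746 transcripts in that setting, 1672 were higher and 1224 lower in med7-1002. The same counts were 458 and 311 in med21-1002, and 359 and 485 in med10-1002.

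**Figure D4:**
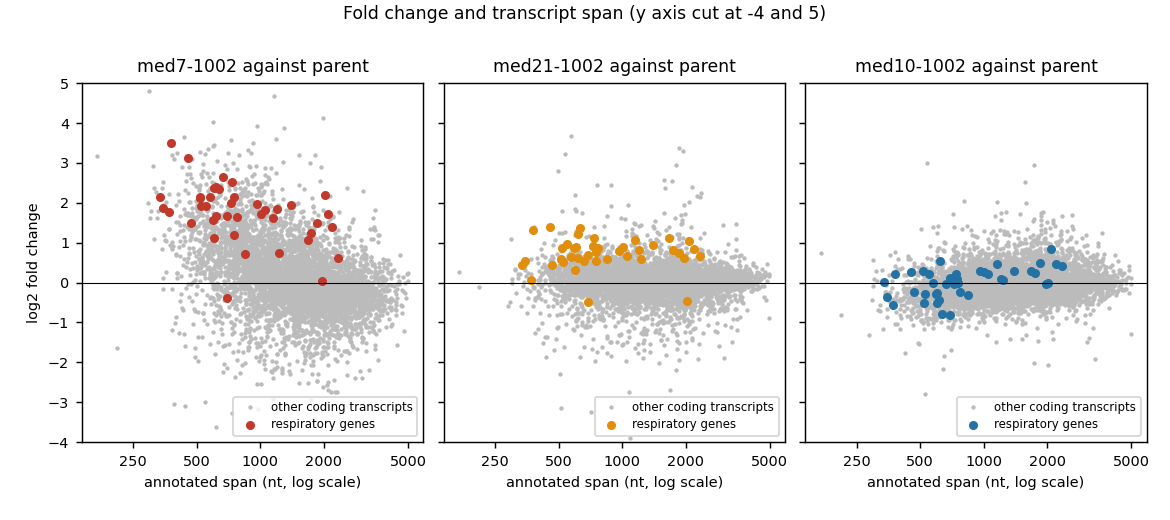
Log2 fold change against parent (y axis) by annotated span in nt (x axis, log scale), 1 panel per mutant, with the 41 respiratory genes in colour over other coding transcripts in grey; 14 coding transcripts in med7-1002 and 3 in med21-1002 fall outside the plotted range. Short transcripts lie higher than long ones in med7-1002, and the respiratory genes have higher medians than other coding transcripts in each span class of every mutant.

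Some of these genes share their position with another transcript. INH1 is covered on the opposite strand by SUT460, a stable noncoding transcript, which had 36.6 CPM in med7-1002, 50.4 CPM in med21-1002, 64.4 CPM in med10-1002 and 53.0 CPM in parent as group means. In med7-1002 SUT460 dropped by 0.54 on the log2 scale (edgeR adjusted p = 0.0278), where INH1 rose. COX5B is likewise covered by XUT_9R-63, which had 5.62 CPM in med7-1002, 9.62 CPM in med21-1002, 16.1 CPM in med10-1002 and 10.7 CPM in parent and fell in med7-1002 by 0.93 (adjusted p = 0.0110). The strand setting of the counting is not given in the sources used here. SUT609 and SUT250, which lie wholly inside XUT_9R-63 and XUT_12F-85 on the same strand, had 0 counts in every library. INH1 and COX5B, wholly covered on the opposite strand, kept at least 237 and 160 counts in every library. Whether INH1 and COX5B values include reads of their partners was not tested. The same holds where coding genes overlap an end of a respiratory gene on the opposite strand. UTR2 overlaps 31 nt of CYC7 and had 206 CPM in med7-1002, 253 CPM in med21-1002, 350 CPM in med10-1002 and 340 CPM in parent, far above CYC7 in each. UTR1 overlaps 139 nt of CYC1 and YML082W 79 nt of ATP18, with 122 and 93.5 CPM in med7-1002 and 72.3 and 151 CPM in parent. LSM6, over 66 nt of ATP17, had 40.2 CPM in med7-1002 and 13.0 CPM in parent and also rose in med7-1002 (log2 fold change 1.62, edgeR adjusted p = 0.00190). How far such overlaps enter the values was not tested. The tested noncoding transcripts that partly cover CYT1, QCR9 and COX12 on the opposite strand had at most 4.09 CPM in any group mean.

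Lists of genes that work with the respiratory chain were counted in the same way. Beside these lists and those below, 25.9% of all transcripts were called higher and 22.6% lower in med7-1002. The shares were 3.88% and 3.92% in med21-1002, and 4.93% and 2.63% in med10-1002. Of 12 tricarboxylic acid cycle genes outside succinate dehydrogenase, 11 rose in med7-1002 (median log2 fold change 1.01), 3 in med21-1002 (0.47) and 2 in med10-1002 (0.52), with 0 lower in each. FUM1, fumarase, stood at 2.0, 0.50 and 0.61, and KGD2, of the 2-oxoglutarate dehydrogenase, at 1.23, 0.72 and 0.25, FUM1 called in med7-1002 and KGD2 in med7-1002 and med21-1002. Among 10 inner membrane carriers and porins, 5 rose in med7-1002 (0.49), 3 in med21-1002 (−0.32) and 0 in med10-1002 (0.31), medians in brackets. PET9, the main ADP/ATP carrier (1.63, 0.72 and 0.51), and MIR1, the phosphate carrier (1.55, 0.71 and 0.38), were called in the first 2 of these. Of 4 genes related to the respiratory ones, 2 rose and 1 fell in med7-1002, 1 rose in med21-1002 and 1 fell in med10-1002. One of them, CYB2, a lactate dehydrogenase that donates electrons to cytochrome c, rose in med7-1002 (2.55) and med21-1002 (1.46) and stood at 0.12 in med10-1002.

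Of the 36 assembly factors measured, 9 rose and 4 fell in med7-1002 (median log2 fold change 0.26), a share called higher of 25% that is close to the 25.9% of all transcripts, while in med21-1002 0 rose and 1 fell (0.10), and in med10-1002 0 rose and 1 fell (−0.10). The 2 with the smallest adjusted p both fell in med7-1002, unlike most of those called: COX19, which acts in copper delivery to the oxidase, had a log2 fold change of −1.51 (SE 0.11, edgeR adjusted p = 1.98e-05), and TCM62, for succinate dehydrogenase assembly, one of −0.90 (SE 0.12, adjusted p = 0.000450). Of 70 mitochondrial ribosomal protein genes, 31 rose and 1 fell in med7-1002 (0.44), 4 rose in med21-1002 (0.24) and 1 fell in med10-1002 (−0.31), with MRPS12 (1.29) and RSM7 (0.84) called in med7-1002. Cytosolic ribosomal protein genes rose as widely as the respiratory genes in med7-1002, 133 of 135 with a median of 1.86, among them RPL15A (2.85) and RPS22A (2.75). In med21-1002 7 of them rose (0.25) and in med10-1002 12 (0.28), shares of 5.19% and 8.89% against 3.88% and 4.93% of all transcripts.

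Of the regulators, HAP4 rose in all 3 mutants, ROX1 fell in 2 of them and HEM13, a heme biosynthesis gene that Rox1 represses, rose in med7-1002. HAP4, named after its values were seen, had 425 and 720 CPM in med7-1002, 1111 and 1011 CPM in med21-1002, 611 and 584 CPM in med10-1002, and 255 and 269 CPM in parent. All mutant libraries lay above parent, and med21-1002 was the highest. The log2 fold changes of HAP4 were 1.13 (SE 0.22), 2.02 (SE 0.23) and 1.19 (SE 0.23), with edgeR adjusted p of 0.00321, 0.00118 and 0.0184. In the direct tests HAP4 was lower in med7-1002 than in med21-1002 (−0.89, edgeR adjusted p = 0.0129). It was higher in med21-1002 than in med10-1002 (0.83, adjusted p = 0.0332). Between med7-1002 and med10-1002 it was not called (−0.06, adjusted p = 0.832). The part of HAP4 in the values of the respiratory genes was not tested. ROX1 stood at −1.35 in med7-1002 (adjusted p = 0.000188), −0.37 in med21-1002 (0.215) and −0.95 in med10-1002 (0.0108), and HEM13 at 1.73 (2.29e-05), 0.33 (0.189) and −0.01 (0.973). Of the 7 regulator genes measured, 2 rose and 1 fell in med7-1002, 1 rose in med21-1002, and 2 rose and 1 fell in med10-1002. In med7-1002 the shares of 28.6% higher and 14.3% lower stood against 25.9% and 22.6% of all transcripts. The same shares in med10-1002 stood against 4.93% and 2.63%, and 14.3% higher in med21-1002 against 3.88%.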

How the data were processed

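Newly made RNA, labelled with 4-thiouracil, was sequenced from 8 libraries, 2 of each strain. The deposited values are whole-number counts of reads per annotated transcript, not normalized, and the tools the authors name, per the submitters' processing notes, are HTSeq, SAMtools and STAR 2.3.0, with the builds R64 and sacCer3. The strand setting of the counting is not stated in what was used here. Rows of HTSeq that name no transcript stayed out of library sizes, and their no-feature share is 32.7% to 49.5%.

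Here, edgeR 4.0.16 (R 4.3.3) removed 284 transcripts by a count minimum of 10, scaled by TMM, fitted all 8 libraries together and tested 5746 transcripts by quasi-likelihood, with Benjamini-Hochberg adjustment over all of them and a threshold of 0.05. CPM are TMM-scaled, and CPM per kb are divided by annotated span, with UTRs and introns. DESeq2 1.42.0 and other settings were alternatives. Nothing says that libraries came from separate cultures, so p-values may measure technical spread. The genes and lists were chosen with earlier results of these data known. Values per library are given for the NADH dehydrogenases, cytochrome c and COX5 genes, the 3 highest and 3 lowest fold changes per mutant, genes called in all 3 mutants and the most abundant gene per length of each complex. From each related list the 2 genes with the smallest adjusted p are named. RIP1, CYT1, SDH4, ATP1 and HAP4, like genes named by a complex or a setting, were added after their values were seen.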

Additional observations from a re-analysis of the deposited data

How the results depend on the processing

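The numbers of respiratory genes called depended on the setting most in med10-1002 and med21-1002. Against parent, med10-1002 had 5 genes higher with library size alone, 1 with the replicate block, 1 with the length correction with or without the block, 13 with only the 2 groups compared, 11 without the med7-1002 libraries and 5 with the DESeq2 Wald test. Genes lower there numbered 1 with the length correction with or without the block, 8 with only the 2 groups, 4 without the med7-1002 libraries and 1 with DESeq2. In med21-1002, 13 were higher with the replicate block, 32 with the length correction, 32 with only the 2 groups and 36, with 1 lower, without the med7-1002 libraries. Calls over all transcripts moved with the setting too. With only the 2 groups, 1510 of 5683 transcripts were higher and 1487 lower in med10-1002, and 597 of 5653 higher and 616 lower in med21-1002. Without the med7-1002 libraries, 1188 of 5701 were higher in med10-1002 and 844 in med21-1002. With the length correction 359 and 458 of 5746 were higher, and with the replicate block 155 and 131. In the main fit these were 283 and 223 of 5746. In med7-1002, 1 was lower with the length correction with or without the block. In med7-1002 against med10-1002 the median was 1.44 with the length correction and block, and against med21-1002 0 genes were lower with only the 2 groups.

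Leaving out 1 library at a time gave 34 to 39 genes higher and 0 to 1 lower in med7-1002, 3 to 36 and 0 to 1 in med21-1002, and 0 to 10 and 0 to 5 in med10-1002, each against parent. It gave 22 to 34 higher and 0 to 2 lower in med7-1002 against med21-1002, 36 to 40 and 0 to 1 in med7-1002 against med10-1002, and 4 to 37 higher in med21-1002 against med10-1002. The medians ran from 1.76 to 1.86 in med7-1002, 0.63 to 0.79 in med21-1002 and 0.01 to 0.12 in med10-1002 against parent, and from 0.91 to 1.17, 1.58 to 1.85 and 0.50 to 0.77 in the 3 direct comparisons. Leaving out a library outside med7-1002 also lowered the calls over all transcripts in med21-1002 and med10-1002 against parent. Leaving out a med7-1002 library raised them. The cause of these moves was not tested. Against parent, no value of a gene called in the main fit changed sign. A lone sample left in a group was assumed to vary like the other groups, and without the med7-1002 libraries med7-1002 has no value. Library size alone put the median of all transcripts in med7-1002 at −0.09, against 0.02 with TMM. Same-numbered libraries had correlations of −0.186 to 0.0938 of their deviations from group means. These show no strong effect shared by replicate number. They cannot show whether the samples were prepared in pairs.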
